A study of Homo sapiens with 2 samples.

Results

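The genes carried by the mitochondrial genome were taken as every gene whose symbol starts with MT- in the 2 expression tables, joined by gene identifier. There were 15 such genes: 13 encode proteins and 2 encode the RNAs of the mitochondrial ribosome. The vector table listed all 15 among 20966 gene identifiers, and the ATOH8 table listed 14 among 20870. MT-CO1 was in the vector table alone and is described apart, since an unlisted gene cannot be read as 0. None of the 22 mitochondrial tRNA genes of GENCODE 29 was in either table. The samples were 2 cultures of A549, an established human lung adenocarcinoma line. One had been stably transduced with the empty retroviral vector and the other with ATOH8 in a retrovirus. The ATOH8 protein is a transcription factor of the basic helix-loop-helix class. Both cultures had therefore been through retroviral transduction. What drives ATOH8, or whether each culture was a clone or a pool, is not given in the sources used here. With 1 library per group there was no spread between replicates, so each difference below compares these 2 libraries, has no p-value and describes no population of cultures.

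Mitochondrial DNA is a small circular genome present in many copies per cell. Its core proteins all belong to the respiratory chain and the ATP synthase: the ND subunits to complex I (NADH dehydrogenase), cytochrome b to complex III, the CO subunits to complex IV (cytochrome c oxidase) and the ATP subunits to complex V. Each strand is copied into long polycistronic RNAs by a dedicated RNA polymerase, POLRMT, with the factors TFAM and TFB2M. The tRNAs that lie between most genes are then cut out, which frees the mRNAs and rRNAs. Both rRNAs and all mRNAs but that of MT-ND6 come from the heavy-strand promoter region, and MT-ND6 comes from the light-strand promoter. The free RNAs of 1 precursor decay at different rates, so their levels differ although they are copied together. Most mRNAs receive a short poly(A) tail.

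The annotated 3′ ends of the 13 coding transcripts are shown because the tail completes the stop codon in some of them. An annotated end need not be the end of the RNA that carries the tail. Those of MT-ATP8 and MT-ND4L lie inside MT-ATP6 and MT-ND4. Each line gives the last 15 bases of the GENCODE 29 transcript (GRCh38), 5′ to 3′, with the stop codon, or the part of it that the genome encodes, in capitals.
MT-ND1: tccccctcaaaccTA
MT-ND2: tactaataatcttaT
MT-CO1: tacataaaatctAGA
MT-CO2: gtatttaccctaTAG
MT-ATP8: cccccacaatccTAG
MT-ATP6: cacgacaacacaTAA
MT-CO3: attgatgagggtctT
MT-ND3: tagactgaaccgaaT
MT-ND4L: ctactccaatgcTAA
MT-ND4: ccgggttttcctctT
MT-ND5: ctcctaatcacaTAA
MT-ND6: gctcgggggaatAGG
MT-CYB: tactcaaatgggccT
The transcripts of MT-ND1, MT-ND2, MT-CO3, MT-ND3, MT-ND4 and MT-CYB end inside the stop codon, after T or TA. MT-ND6 is read from the other strand and has the opposite base composition, with 35.6% G and 7.05% C against 6.28% to 16.2% G and 29.5% to 35.98% C in the other 12 coding transcripts.

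Some members share bases, which bears on how far their values can be told apart. The end of MT-ATP8 and the start of MT-ATP6 are the same 46 bases, read in different frames (mitochondrial genome, 8527 to 8572, plus strand):
MT-ATP8/MT-ATP6: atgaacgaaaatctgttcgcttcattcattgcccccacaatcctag
This overlap is 22.2% of MT-ATP8. MT-ND4L and MT-ND4 overlap by 7 bases and MT-ATP6 and MT-CO3 by 1. The files give 1 locus for MT-ATP8, MT-ATP6 and MT-CO3 together and 1 for MT-ND4L and MT-ND4, so the authors' estimates could split reads within each of these loci. FPKM, fragments per kilobase of transcript scaled to the fragments of the library, allows levels of different genes in a library to be set side by side. For transcripts as short as MT-ATP8 (207 bases), MT-ND4L (297 bases) and MT-ND3 (346 bases) the length correction is least certain.

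The summed FPKM was 540101 in the vector table and 502502 in the ATOH8 table, while read depth is not given in the sources used here. The values therefore carry no counting interval. The transduced gene stood where the labels place it, with ATOH8 at 0.786 (vector) and 182 FPKM (ATOH8). The keratin genes KRT8 and KRT18 were between 2012 and 2486 FPKM in both libraries, and 8 detoxification enzyme genes typical of A549 between 589 and 4868 FPKM. The epithelial genes KRT19 and EPCAM were low, at 0.0700 to 2.23 FPKM, and CDH1, the gene of E-cadherin, was at 15.4 (vector) and 54.1 FPKM (ATOH8). Of 12 marker genes of blood, endothelial and stromal cells, 6 were listed in the vector library with a summed 4.56 FPKM, and 10 in the ATOH8 library with 26.1 FPKM. CD68 (2.14 and 15.4 FPKM) and CD14 (1.12 and 9.14 FPKM) made up most of both sums, while CD3E was in neither table. The part of these markers in the results below was not tested. In bulk RNA, fewer cells of a kind and less RNA per cell cannot be told apart.

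Mitochondrial transcripts made up a larger share of the ATOH8 library. The 14 members listed in both tables summed to 75812 FPKM in the vector library, 14.0% of its total, and to 121391 FPKM in the ATOH8 library, 24.2% of its total. The vector share was 16.5% with MT-CO1 counted where it is listed. The 12 coding members alone took 11.2% and 19.6%. Among the 10 most abundant listed genes, 6 were mitochondrial in the vector library and 8 in the ATOH8 library. The vector 6 include MT-CO1, which has no ATOH8 value, so these counts do not cover the same genes. FPKM is relative to the library, so mitochondrial and other values are not independent of each other. The genes outside the mitochondrial genome listed in both tables summed to 450808 (vector) and 380807 FPKM (ATOH8), a ratio of 0.845, and the median log2 fold of all tested genes was -0.30. Folds below are log2(ATOH8 FPKM + 1) minus log2(vector FPKM + 1) on the values as deposited, and the tested genes are the 12342 symbols averaging 1 FPKM or more, which all 14 members passed.

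**Figure D1:**
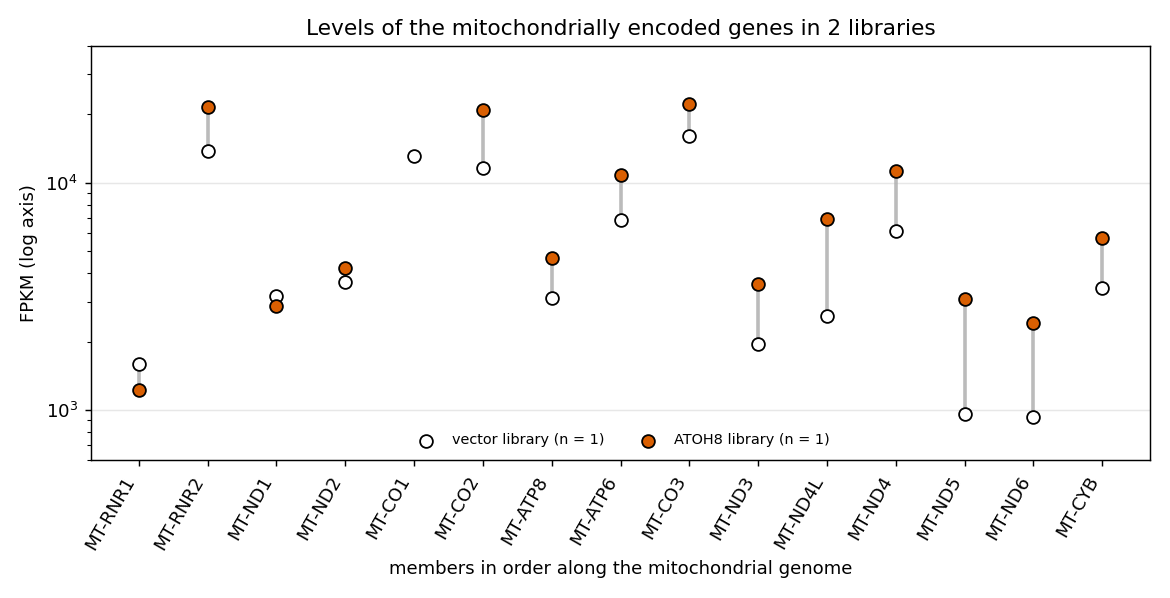
FPKM (log axis) of the 15 members in order along the mitochondrial genome. Open circles are the vector library and filled circles the ATOH8 library, 1 library each, and a grey line joins the values of a gene. MT-CO1 has a vector value only. The filled circle lies above the open one for 12 of 14 genes, with the longest lines at MT-ND5, MT-ND4L and MT-ND6.

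Complex I, the entry point for electrons from NADH, has 7 mitochondrial subunits, and these showed both the largest and some of the smallest differences. MT-ND5 (ENSG00000198786, 12337 to 14148, plus strand), a proton-pumping subunit at the end of the membrane arm, was at 956 (vector) and 3077 FPKM (ATOH8). This was the largest difference of the 14, a ratio of 3.22 and a log2 fold of 1.69, higher than that of 98.5% of all tested genes. MT-ND4L (10470 to 10766, plus strand), a small membrane subunit, was at 2588 and 6904 FPKM, a ratio of 2.67. MT-ND6 (14149 to 14673, minus strand), a membrane subunit and the lowest member in the vector library, was at 931 and 2414 FPKM, a ratio of 2.59. These 3 were the members at least 2-fold higher in the ATOH8 library.

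The other complex I members differed less. MT-ND4 (10760 to 12137), a proton-pumping subunit, was at 6135 (vector) and 11294.5 FPKM (ATOH8), and MT-ND3 (10059 to 10404), which lies at the joint of both arms, at 1949.7 and 3584 FPKM. Each had a ratio of 1.84. MT-ND2 (4470 to 5511), the third of the antiporter-like subunits, was at 3659 and 4219.7 FPKM, a ratio of 1.15. MT-ND1 (3307 to 4262), which helps form the quinone site, was at 3167 and 2865 FPKM, a ratio of 0.904, and was the sole coding member lower in the ATOH8 library on the values as deposited, though not relative to the median gene (0.21). The range of the 7 log2 folds was -0.14 to 1.69, with a median of 0.88. MT-ND4L and MT-ND4 overlap and share a locus, whose summed FPKM had a ratio of 2.09. Within it, MT-ND4 was 2.37 times MT-ND4L in the vector library and 1.64 times MT-ND4L in the ATOH8 library. The separate values of MT-ND4L and MT-ND4 are therefore less certain than their sum. As the strand setting is not given in the sources used here, reads from MT-ND6 and from antisense RNA over it cannot be told apart.

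Complexes III, IV and V were higher by similar amounts. MT-CYB (14747 to 15887, plus strand), cytochrome b and the sole mitochondrial subunit of complex III, was at 3437 (vector) and 5702 FPKM (ATOH8), a ratio of 1.66. MT-CO2 (7586 to 8269), which takes electrons from cytochrome c, was at 11659 and 20803 FPKM, a ratio of 1.78. MT-CO3 (9207 to 9990), a core subunit of complex IV, was at 16020.1 and 22254 FPKM, a ratio of 1.39. It was the most abundant of all listed genes in both libraries, with no ATOH8 value for MT-CO1. MT-ATP6 (8527 to 9207), which forms the proton path of the ATP synthase, was at 6866 and 10797 FPKM, a ratio of 1.57. MT-ATP8 (8366 to 8572), a short subunit of the stator, was at 3107 and 4673 FPKM, a ratio of 1.504. The ratio of MT-ATP6 to MT-ATP8, which overlap on 1 mRNA, was 2.21 in the vector and 2.31 in the ATOH8 library. The locus of MT-ATP8, MT-ATP6 and MT-CO3 as a whole had a ratio of sums of 1.45.

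MT-CO1 (ENSG00000198804, 5904 to 7445, plus strand) encodes the catalytic subunit of complex IV, which holds the site where oxygen is reduced. Its level was 13096 FPKM in the vector library, 2.42% of the total and the third highest of all genes, and no value was listed in the ATOH8 library. No fold was computed for it.

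The ribosomal RNAs went opposite ways on the values as deposited. MT-RNR2 (ENSG00000210082, 1671 to 3229), the RNA of the large mitoribosomal subunit, was at 13743 (vector) and 21580 FPKM (ATOH8), a ratio of 1.57. MT-RNR1 (ENSG00000211459, 648 to 1601), that of the small subunit, was at 1594 and 1225 FPKM, a ratio of 0.769 and the lowest of the 14. MT-RNR2 was 8.62 times MT-RNR1 in the vector and 17.6 times MT-RNR1 in the ATOH8 library, a ratio that no scaling of a library can move. Both lie on the same precursor. Whether poly(A) RNA was selected or ribosomal RNA removed is not given in the sources used here. These levels may not stand for the amount in the cell.

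**Figure D2:**
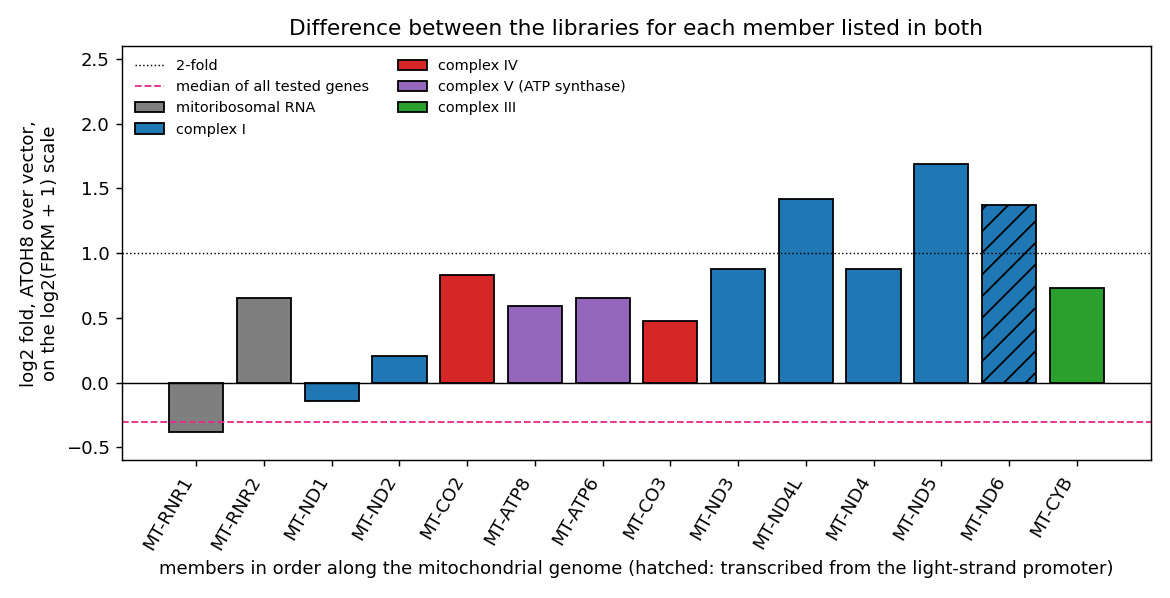
Log2 fold, ATOH8 over vector, on the log2(FPKM + 1) scale for the 14 members listed in both tables, in order along the mitochondrial genome and coloured by complex, with 1 library per group and no error. The dotted line marks 2-fold and the dashed line the median of all tested genes (-0.30). MT-ND4L, MT-ND5 and MT-ND6 lie above 2-fold, and MT-RNR1 and MT-ND1 below 0.

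Read against all genes, the members stood high. With the FPKM as deposited, 3 of 14 were at least 2-fold higher against a background of 6.24% of tested genes, and 0 of 14 at least 2-fold lower against 19.0%. By any amount, 12 of 14 were higher against 35.3%. The median log2 fold of the members was 0.69 and that of all tested genes -0.30. Measured relative to the median gene, which subtracts the log2 fold of -0.36 found where the mean was 5 FPKM or more, 9 of 14 were at least 2-fold higher against 12.8% and 0 at least 2-fold lower against 9.46%. Under that centring MT-RNR1 (-0.02) lay on the median gene and MT-ND1 (0.21) above it. With each library scaled to its genes outside the mitochondrial genome, 6 of 14 were at least 2-fold higher against 9.34% and 0 lower against 12.9%, and MT-ND1 again changed side, to 0.10. With upper quartile scaling the counts were 9 against 11.8% and 0 against 10.2%, and with TPM 3 against 8.84% and 0 against 18.5%. A pseudocount of 0.1 gave 3 against 9.05% and 0 against 24.1%, and a pseudocount of 5 gave 3 against 2.33% and 0 against 8.64%. MT-ND5, MT-ND4L and MT-ND6 passed 2-fold under each of these settings. None of the settings changes how reads were split between MT-ND4L and MT-ND4.

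Genes like the members in abundance, base composition or length had lower medians. The 33 other genes whose mean was no lower than that of the lowest member (1409 FPKM) had a median log2 fold of -0.15. Their folds ranged from -0.91 to 1.02. Of the 33, 12 were higher in the ATOH8 library, a share near the 35.3% of all tested genes. The GC content of the members was 39.6% to 47.7%. In the same GC range 4040 other tested genes had a median of -0.59, and 2.203% of them were at least 2-fold higher. The 2076 other tested genes with transcripts no longer than MT-ND5 (1812 bases) had a median of -0.21. Folds in these libraries followed GC content, so each member was also set against genes of its own decile of GC content, a comparison chosen after seeing the data. The median of the members was then 1.27, and 10 of 14 were at least 2-fold higher against 8.29% and 0 lower against 6.01%. None of these differences has a replicate check.

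**Figure D3:**
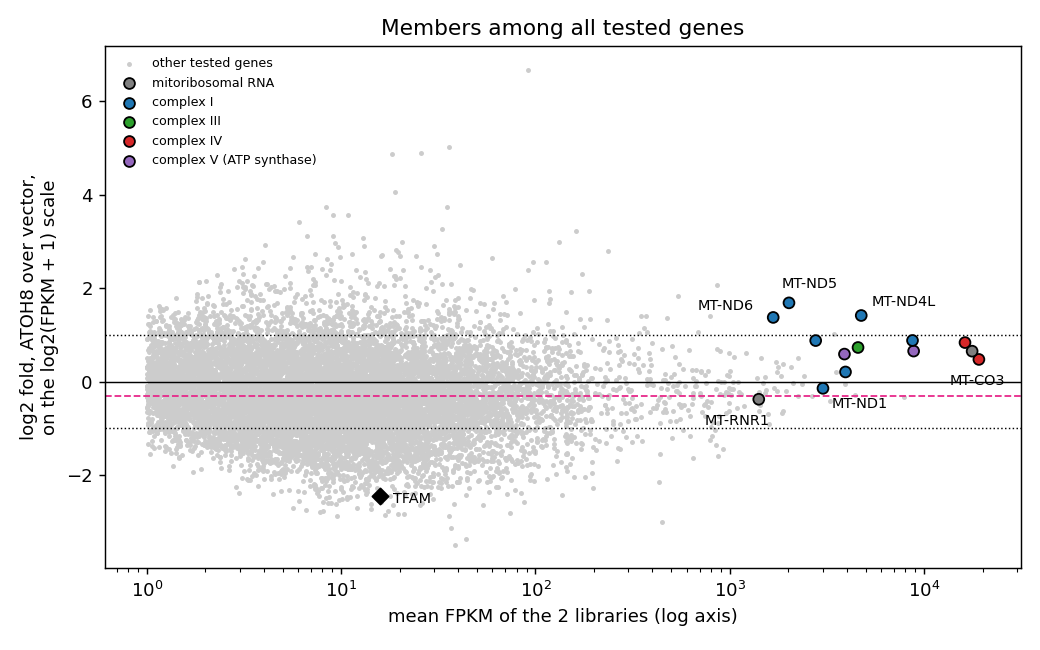
Log2 fold on the log2(FPKM + 1) scale against the mean FPKM of both libraries (log axis) for all 12342 tested genes, with members coloured by complex and TFAM as a black diamond. Dotted lines mark 2-fold and the dashed line the median of all tested genes at -0.30. The members occupy the right edge, 12 of 14 above 0, while TFAM lies at -2.45.

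Folds differed along the genome. Among the 11 coding members transcribed from the heavy-strand promoter region, the log2 fold and the start position had a Spearman correlation of 0.75 and a Pearson correlation of 0.72, and over 13 genes with both rRNAs these were 0.77 and 0.73. All points come from the same 2 libraries, so this describes those libraries. MT-ND1 and MT-ND2, the coding genes nearest the promoter, had a ratio of summed FPKM of 1.04. The 4 genes from MT-CO2 to MT-CO3 had a ratio of 1.55, and the 6 from MT-ND3 to MT-CYB a ratio of 2.06, a grouping chosen after the values were seen. The order was not strict, since MT-RNR2 near the start had a higher fold than MT-ND1, MT-ND2, MT-ATP8 and MT-CO3, and MT-CYB at the end a lower one than MT-ND3 to MT-ND6. Over the 14 members the Spearman correlation of the fold with GC content was -0.27 and with length -0.05.

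The members were also set side by side by the annotated ends printed above. The 6 coding members whose transcript ends inside the stop codon had log2 folds from -0.14 to 0.88 with a median of 0.60, and 0 of 6 were at least 2-fold higher. The 6 with a stop codon encoded whole ranged from 0.59 to 1.69 with a median of 1.10, and 3 of 6, MT-ND4L, MT-ND5 and MT-ND6, were at least 2-fold higher. The background was 6.24% of tested genes. Relative to the median gene the counts were 3 of 6 and 5 of 6 against 12.8%, and with scaling to the genes outside the mitochondrial genome 2 of 6 and 4 of 6 against 9.34%. The ranges overlapped, and the split was made with the values known, so no conclusion is drawn from it. The groups do not separate RNAs either. MT-ND4L and MT-ND4 overlap and share a locus but fall in different groups, and the overlapping MT-ATP8 and MT-ATP6 count as separate cases.

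Ratios within a library do not depend on its scaling, and several moved. MT-ND5 was 0.302 times MT-ND1 in the vector and 1.07 times MT-ND1 in the ATOH8 library. MT-CO2 was 3.68 times MT-ND1 and then 7.26 times. Levels of the 12 coding members spanned 17.2-fold in the vector library, from MT-ND6 to MT-CO3, and 9.22-fold in the ATOH8 library between the same genes. The least abundant mRNAs thus lay closer to the most abundant one in the ATOH8 library.

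Copies of stretches of the mitochondrial genome lie in the nuclear genome, and reads from near-identical ones can be assigned to either. The tables listed 18 nuclear copies of coding members, with 69.6% to 98.7% of aligned bases identical to the parent, and 9 of the 18 were in both tables. Of these 9, 3 had a mean of 5 FPKM or more, all on chromosome 1: MTCO1P12, MTND2P28 and MTATP6P1. The highest value of any other copy was 1.11 FPKM. The lines below give, for each of the 3, the 60-base window with the most differences from its mitochondrial parent, with differing bases in capitals, since these are the places where a read can be told apart.
MT-ATP6, bases 116 to 175: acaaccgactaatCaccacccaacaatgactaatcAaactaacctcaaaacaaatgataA
MTATP6P1: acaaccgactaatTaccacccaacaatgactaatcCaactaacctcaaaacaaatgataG
MT-CO1, bases 304 to 363: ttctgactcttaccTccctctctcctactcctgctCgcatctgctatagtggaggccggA
MTCO1P12: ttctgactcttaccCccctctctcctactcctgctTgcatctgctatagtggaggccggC
MT-ND2, bases 430 to 489: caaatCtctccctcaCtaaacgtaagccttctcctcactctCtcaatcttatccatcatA
MTND2P28: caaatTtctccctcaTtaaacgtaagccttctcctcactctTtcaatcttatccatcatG
MTATP6P1 (633696 to 634376) differed from MT-ATP6 at 10 of 681 bases, with 141 bases in a row identical. MTCO1P12 (631074 to 632616) differed from MT-CO1 at 20 of 1542 aligned bases, and MTND2P28 (629640 to 630683) from MT-ND2 at 17 of 1042.

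MTATP6P1 and MTCO1P12 were higher in the ATOH8 library, and MTND2P28 was nearly level on the values as deposited. MTATP6P1 was at 654 (vector) and 1056 FPKM (ATOH8), a ratio of 1.62 beside 1.57 for MT-ATP6, and stood at 9.52% and 9.78% of its parent. MTND2P28 was at 484 and 476 FPKM, a ratio of 0.983 beside 1.15 for MT-ND2, and stood at 13.2% and 11.3% of its parent. MTCO1P12 was at 169.7 FPKM in the vector, where MT-CO1 was listed, and at 309.6 FPKM in the ATOH8 library, where it was not. Its ratio was 1.82. Values of MT-ATP6, MT-ND2 and MT-CO1 are uncertain by what was assigned to these copies. Nuclear copies of MT-RNR1 and MT-RNR2 were not compared, so the same uncertainty is not known for the rRNAs.

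Nuclear genes encode the remaining subunits of the same complexes, and as groups they lay well below the mitochondrial subunits. Of 37 nuclear complex I genes, 4 were lower by 2-fold or more, a smaller share than the 19.0% of all tested genes. Higher by as much were 0 of the 37, against 6.24% of all tested genes. Their median log2 fold was -0.39 beside 0.88 for the 7 MT-ND genes. NDUFA5, a subunit of the peripheral arm, was at 40.2 and 14.2 FPKM in vector and ATOH8, while the iron-sulfur subunits NDUFS8 (94.9 and 147.5 FPKM) and NDUFS7 (36.6 and 52.7 FPKM) were higher in the ATOH8 library. Complex II has no mitochondrial subunit. Of its 4 genes, 0 were 2-fold apart, with SDHA at 65.8 and 85.6 FPKM, SDHB at 66.4 and 53.9, SDHC at 101.1 and 79.5 and SDHD at 58.2 and 41.2. The 9 nuclear complex III genes had a median of -0.14 beside 0.73 for MT-CYB, and ranged from UQCRB (129.9 and 70.5 FPKM) to UQCRC1 (84.5 and 114.1 FPKM). UQCRFS1, the Rieske protein gene (111.9 and 123.4 FPKM), and UQCR10 (50.3 and 50.4 FPKM) differed little.

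Complex IV was the complex whose nuclear genes stood highest. Of 11 nuclear genes, 8 were higher in the ATOH8 library by some amount, against 35.3% of all tested genes. The median log2 fold of the 11 was 0.24 beside 0.84 for MT-CO2 and 0.47 for MT-CO3. COX6A1 was at 346 and 443 FPKM, COX6B1 at 316 and 403 FPKM and COX5B at 119.3 and 145.7 FPKM. COX6C was the exception at 154.1 and 65.5 FPKM, the sole one 2-fold apart. The 15 nuclear ATP synthase genes had a median of -0.26 beside 0.65 for MT-ATP6 and 0.59 for MT-ATP8. The catalytic beta subunit gene ATP5B was at 587 and 695 FPKM, ATP5D at 63.5 and 76.9 FPKM and ATP5G2, for a membrane ring subunit, at 230.3 and 320.5 FPKM. ATP5F1, for a stator subunit, was the sole one of the 15 at least 2-fold lower, at 91.3 and 42.5 FPKM, against 19.0% of all tested genes. At least 2-fold higher were 0 of the 15, against 6.24%. MT-ATP6, MT-ATP8, MT-CO2, MT-CO3 and MT-CYB thus each had a higher fold than every measured nuclear gene of its complex, and so did MT-ND3, MT-ND4, MT-ND4L, MT-ND5 and MT-ND6. MT-ND1 and MT-ND2 lay inside the nuclear range. Relative to the median gene the nuclear medians were -0.03 for complex I, 0.04 for II, 0.22 for III, 0.60 for IV and 0.10 for the ATP synthase.

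**Figure D4:**
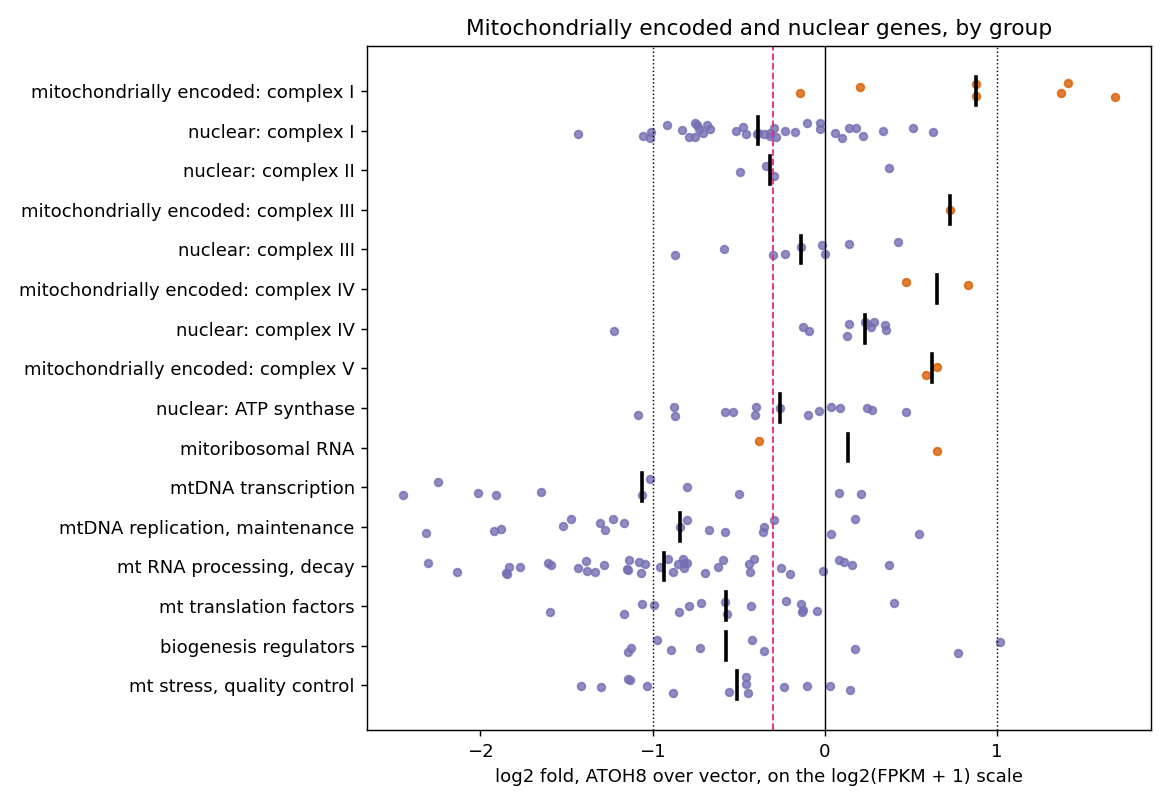
Log2 fold, ATOH8 over vector, on the log2(FPKM + 1) scale. Each point is a gene averaging 1 FPKM or more, orange for mitochondrially encoded and purple for nuclear, and black bars are group medians. Dotted lines mark 2-fold and the dashed line the median of all tested genes (-0.30). Orange groups of complexes I, III, IV and V have medians from 0.62 to 0.88, and the purple group of mitochondrial transcription genes has a median of -1.06.

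Many of the nuclear genes that copy, process and maintain mitochondrial DNA and RNA had lower values in the ATOH8 library, and some had higher ones. Of 11 genes of mitochondrial transcription, 7 were at least 2-fold lower and 0 higher, against 19.0% and 6.24% of tested genes. By some amount, 2 of the 11 were higher, against 35.3% of tested genes. TFAM, which packages mitochondrial DNA and starts its transcription, was at 27.6 (vector) and 4.23 FPKM (ATOH8). Its vector FPKM was 6.52 times its ATOH8 FPKM, and its log2 fold on the log2(FPKM + 1) scale was -2.45. TEFM, the elongation factor of POLRMT, was at 12.6 and 1.88 FPKM, and TFB2M, which opens the promoter, at 17.5 and 4.88 FPKM. MTERF3 (17.9 and 3.67 FPKM) and MTERF1 (7.16 and 1.17 FPKM) belong to a family of mitochondrial DNA and RNA binding proteins. POLRMT itself was at 22.7 and 26.4 FPKM. Among 40 genes of mitochondrial RNA processing, modification and decay, 19 were lower by 2-fold or more and 0 higher by as much, against the same 19.0% and 6.24%. Their median was -0.93, and 4 of the 40 were higher by some amount, against 35.3% of tested genes. TRMT10C, a subunit of the enzyme that cuts the 5′ ends of the tRNAs, was at 23.3 and 3.92 FPKM, and TRNT1, which adds the CCA end to tRNAs, at 17.4 and 3.19 FPKM. TRMT61B, a tRNA methyltransferase, was at 14.8 and 3.38 FPKM, and FASTKD1, an RNA-binding protein, at 16.9 and 3.99 FPKM. LRPPRC and SLIRP, which form a complex that holds mitochondrial mRNAs stable, were at 53.7 and 19.3 FPKM and at 129.9 and 51.0 FPKM.

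Of 19 measured genes of mitochondrial DNA replication and maintenance, 9 were lower by 2-fold or more and 0 higher by as much, against 19.0% and 6.24% of tested genes. Their median was -0.84, and 3 of the 19 were higher by some amount, against 35.3% of tested genes. The genes named here are those farthest from the median gene, all of them lower. The nuclease-helicase gene DNA2 was at 9.65 and 1.14 FPKM, SUCLA2, a succinyl-CoA ligase subunit, at 22.8 and 5.29 FPKM, PRIMPOL, a primase-polymerase, at 6.82 and 1.12 FPKM, and MGME1, a mitochondrial exonuclease, at 24.3 and 7.83 FPKM. Of 16 translation factors, 3 were at least 2-fold lower, a share near the 19.0% of all tested genes, and the count was 1 relative to the median gene and 0 against genes of the same GC decile. The 3 were MTIF2 (24.9 and 7.57 FPKM), MTRF1L (11.5 and 4.56 FPKM) and MTRF1 (4.85 and 1.80 FPKM). The membrane insertase gene OXA1L was at 110.3 and 146.1 FPKM. Of the 10 measured regulators of mitochondrial biogenesis, 3 were higher by some amount, against 35.3% of tested genes. The median log2 fold of the 10 was -0.57, beside -0.30 for all tested genes. At least 2-fold higher was 1 of the 10 and at least 2-fold lower were 2, against 6.24% and 19.0% of tested genes. The coactivator PPARGC1A was at 1.35 and 3.76 FPKM and ESRRA, a nuclear receptor it works with, at 23.0 and 39.98 FPKM, while GABPA (4.31 and 1.41 FPKM) and SIRT1 (10.7 and 4.36 FPKM) were lower.

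Folds in these libraries moved with base composition, though not in every list. The median GC content was 43.1% for the transcription list and 44.5% for the RNA processing list, against 48.5% over all tested genes. The nuclear complex IV list had a lower median GC content still, 42.5%, and the highest median fold of the nuclear lists (0.24). Set against genes of the same decile of GC content, 3 of 11 transcription genes were at least 2-fold lower (median -0.79), 7 of 40 RNA processing genes (median -0.54) and 6 of 19 replication genes (median -0.65), against 6.01% of tested genes. TFAM (-1.39), TEFM (-1.19), MTERF3 (-1.14), TRMT10C (-1.43), TRMT61B (-1.36), TRNT1 (-1.08), DNA2 (-1.26), PRIMPOL (-1.16), SUCLA2 (-1.05) and MGME1 (-1.02) stayed 2-fold lower or more. MTERF1 (-0.85), TFB2M (-0.93), FASTKD1 (-0.79), LRPPRC (-0.71) and SLIRP (-0.46) did not. The mitochondrial members went the other way under this comparison, as given above.

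In the authors' deposited table of differential expression, 1 of the 15 members appeared. MT-ND5 was marked up in the authors' deposited table with a log2 ratio of 1.69, a p-value of 0.000708 and a q-value of 0.00726, where 4.33% of the gene identifiers listed in both tables were marked up and 10.2% marked down. That p-value compares the 2 libraries and not the conditions. MT-ND4L and MT-ND6, at ratios of 2.67 and 2.59, were not in the authors' deposited table, although its smallest log2 ratio marked up was 1.00. The table holds only genes that passed the authors' thresholds, so their values for the other members are not known.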

How the data were processed

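RNA sequencing was done on 1 library per group. For each library the authors deposited FPKM values per gene. The authors also deposited their own comparison, with log2 ratios, p-values and q-values, per the file headers. The submitters' processing notes name CASAVA, HISAT2, Cufflinks 2.2.1 and hg38 (GRCh38), with no roles. The annotation release, strand setting, RNA selection or read depth is not given in the sources used here. In the comparison table, 2 per-library columns carry names that match no label, and these were left out.

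Tables were joined by gene identifier, rows sharing a symbol were summed, and log2(FPKM + 1) was differenced, with a minimum mean FPKM of 1. No test was run; a 2-fold rule of size was used. The arithmetic was checked on simulated data with set changes well past the 2-fold rule and little noise. The simulation held no shift in library composition, GC trend or shared locus, so it does not bear on those limits. Sequences, positions, GC content and lengths come from GENCODE 29 (GRCh38, longest transcript), whose mitochondrial starts lie 1 base after those of the files, and alignments from Biopython 1.88 (Python 3.11.15). Outside the members, the named genes are ATOH8, markers, at most 4 members of each nuclear list with the largest fold relative to the median gene, 6 chosen regulators, and nuclear copies averaging 5 FPKM or more. The members and lists were chosen with earlier results of these data known. Alternatives were pseudocounts of 0.1 and 5, other filters, scalings, denominators and member sets.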

Additional observations from a re-analysis of the deposited data

How the results depend on the processing

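The count of members at least 2-fold higher, 3 as deposited, was 9 relative to the median gene, 9 with upper quartile scaling, 6 when scaled to non-mitochondrial genes and 10 against genes of the same GC decile. Their median log2 fold, 0.69, became 1.05, 1.07, 0.93 and 1.27 under these, 0.80 with TPM, 0.78 for coding members only and 0.78 without MT-ND2 and MT-ATP6. The number higher by any amount stayed between 12 and 14, and 0 were 2-fold lower under any setting run. The mitochondrial share was 14.4% (vector) and 24.2% (ATOH8) of genes listed in both tables, 16.5% in vector with MT-CO1, and 11.2% and 19.6% for coding members, that is, without MT-RNR1 and MT-RNR2. Over the 11 nuclear lists together (184 genes), 51 were at least 2-fold lower as deposited, against 19.0% of all tested genes. The count was 27 with a pseudocount of 5 (8.64% of all tested genes) and 24 relative to the median gene (9.46%). It was 29 when scaled to non-mitochondrial genes (12.9%) and 18 against the same GC decile (6.01%). At least 2-fold higher were 1 as deposited (6.24%), 0 with a pseudocount of 5 (2.33%) and 2 relative to the median gene (12.8%). The count higher was 2 when scaled to non-mitochondrial genes (9.34%) and 3 against the same GC decile (8.29%). It was 0 at a mean FPKM of at least 5, where no share of all genes was computed. The cause of these changes was not tested. The GC setting and the settings without pairs of members were chosen after seeing the data. No paired analysis was possible because each group held 1 library. Depth is unknown, so no counting error limits any value.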

Other observations

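The nuclear list of mitochondrial stress and protein quality control genes leaned low as deposited, and less so relative to the median gene (median -0.15). On the values as deposited, 5 of 14 measured genes were lower by 2-fold or more (19.0% of tested genes) and 0 higher by as much (6.24%). Their median log2 fold was -0.51 beside -0.30 for all tested genes, and relative to the median gene 1 of the 14, HSPE1, was lower by 2-fold or more (9.46%). Of the 14, 2 were higher by some amount, against 35.3% of tested genes, and 4 lay above the median gene. The genes named here are those farthest from the median gene, all of them lower. The chaperonin gene HSPE1 was at 388.8 (vector) and 145.1 FPKM (ATOH8), and the inner membrane protease gene YME1L1 at 57.7 and 22.9 FPKM. The matrix HSP70 gene HSPA9 was at 210.2 and 94.7 FPKM and CLPX, of a matrix protease, at 20.8 and 8.95 FPKM.

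The order of the members by level held at the top and shifted below it. MT-CO3 and MT-RNR2 were the first and second of all listed genes in both libraries. MT-CO1 had no ATOH8 value, so the ranks in that library leave it out and its place there is not known. MT-ND4L went from rank 10 of the 14 to rank 6, and MT-ND1 from rank 8 to rank 12. The lowest of the 14 was MT-ND6 in the vector library and MT-RNR1 in the ATOH8 library. Among all listed genes MT-ND5 stood at rank 79 in the vector and 16 in the ATOH8 library, and MT-ND6 at 82 and 21.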
